A study of Mus musculus with 16 samples.

Results

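The interleukin-1 (IL-1), tumor necrosis factor (TNF) and inflammasome genes were followed as a set of 10, chosen by name: the ligands Il1a and Il1b, the antagonist Il1rn, the receptor chains Il1r1 and Il1rap, the inflammasome genes Nlrp3, Casp1 and Il18, and the TNF axis of Tnf and its receptor Tnfrsf1a. All 10 of the 10 named genes were present among the 19449 genes of the count table. The table holds total RNA of mouse hippocampus in 16 libraries, in 4 groups of 4. Wild-type or TSPOKO mice, 3 months old, had received PBS, the vehicle, or lipopolysaccharide (LPS), an outer membrane molecule of Gram-negative bacteria recognized by TLR4. The knockout lacks Tspo, the gene of the translocator protein of the outer mitochondrial membrane. The labels state neither the knockout allele, the strain, the dose of LPS nor the time from injection to collection, and the question they name is the effect of losing Tspo under neuroinflammation.

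IL-1 alpha and IL-1 beta both signal through IL-1 receptor type 1 together with its accessory protein, and the receptor antagonist competes for the same receptor. IL-1 beta and IL-18 are made as inactive precursors that caspase-1 cuts inside inflammasomes such as the one built by NLRP3, so that mRNA level and released cytokine are separate quantities. In the brain, microglia are a main source of IL-1 beta and TNF after LPS, while the type 1 IL-1 receptor is best known from endothelium and from neurons of the dentate gyrus.

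Promoters are shown for Il1a, Il1b, Tnf, Nlrp3 and Tnfrsf1a, a selection from the set, so that their sequence can be set beside their levels. Each is the 250 bases before the RefSeq start, 5′ to 3′ on the gene's own strand, from GRCm38.p6. Capitals mark a match to any of 4 motifs: the NF-kappaB consensus, TGANTCA (the AP-1 element), GAGGAAGT (an ETS-type element) and TATAAA. The last was searched on the gene's own strand only, and the others on both strands. The Il1a promoter lies at chr2:129309973-129310222 on the minus strand, Il1b at chr2:129371140-129371389 on the minus strand and Tnf at chr17:35202008-35202257 on the minus strand. The second Nlrp3 promoter lies at chr11:59541319-59541568 and Tnfrsf1a at chr6:125349473-125349722, both on the plus strand. The first Nlrp3 promoter and that of Casp1, neither with a match to any motif, are not printed.
Il1a: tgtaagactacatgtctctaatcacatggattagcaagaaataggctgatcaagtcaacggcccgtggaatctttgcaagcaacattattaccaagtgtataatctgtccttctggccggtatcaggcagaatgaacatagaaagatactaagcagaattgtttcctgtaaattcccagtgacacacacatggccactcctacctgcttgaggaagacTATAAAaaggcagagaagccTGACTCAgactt
Il1b: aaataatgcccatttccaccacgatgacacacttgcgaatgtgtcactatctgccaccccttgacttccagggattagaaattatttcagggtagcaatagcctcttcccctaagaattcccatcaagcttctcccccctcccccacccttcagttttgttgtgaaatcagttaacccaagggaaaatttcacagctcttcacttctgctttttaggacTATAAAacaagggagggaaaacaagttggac
Tnf: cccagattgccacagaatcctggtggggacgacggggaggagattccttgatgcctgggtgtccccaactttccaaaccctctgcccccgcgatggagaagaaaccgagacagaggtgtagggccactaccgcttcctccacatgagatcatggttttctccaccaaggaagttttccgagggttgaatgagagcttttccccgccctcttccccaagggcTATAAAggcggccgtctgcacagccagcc
Nlrp3: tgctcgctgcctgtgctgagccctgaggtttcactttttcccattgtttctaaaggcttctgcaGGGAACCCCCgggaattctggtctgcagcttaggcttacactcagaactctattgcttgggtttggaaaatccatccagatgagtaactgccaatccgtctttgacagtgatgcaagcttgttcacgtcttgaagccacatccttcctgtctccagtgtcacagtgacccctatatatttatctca
Tnfrsf1a: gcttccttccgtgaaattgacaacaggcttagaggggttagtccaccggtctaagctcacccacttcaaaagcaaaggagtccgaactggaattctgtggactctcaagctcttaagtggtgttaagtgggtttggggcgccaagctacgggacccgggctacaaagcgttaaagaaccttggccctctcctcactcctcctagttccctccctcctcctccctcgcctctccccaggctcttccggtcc

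TATAAA stood at nearly the same distance from the start in the 3 cytokine genes, beginning 32 bases before it in Il1a, 31 in Il1b and 29 in Tnf. On the gene's own strand it was found in 3 of the 10 genes, and in 7.59% of all 32851 RefSeq promoter windows of that length. TGANTCA occurred in Il1a and, in a promoter not printed, in Il1rn, and in 6.75% of all windows. The NF-kappaB consensus occurred in the second promoters of Nlrp3 and Il1r1 and in 7.25% of all windows, and GAGGAAGT in none of the 10 genes and 2.44% of windows. A match describes the letters only. The 10 genes have 14 promoter windows in RefSeq, so that a gene with several had more chances of a match.

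Total counts ran from 30198619 to 50009041 per library, and levels are given as CPM, a count divided by the TMM-scaled size of its library. Tspo was at 2.06 to 5.17 CPM in wild-type PBS and 0.209 to 0.487 CPM in knockout LPS, but replicate 1 of the libraries labelled knockout PBS had 2.33 CPM from 98 counts. That contradicts the label, and this library is part of each direction given for knockout PBS. Wild-type LPS replicate 1 stood with the PBS libraries for most of the set: it was inside the wild-type PBS range in 6 of the 10 genes, above it in 3 and below it in 1. Among the 6 are Il18 and Il1rap, in which replicates 2, 3 and 4 did not all stand above PBS either. Letter-and-digit codes of unstated meaning in the titles follow the split of replicate 1 from the other wild-type LPS libraries. Wild-type LPS replicate 1 shares its code with wild-type PBS replicate 4, while wild-type LPS replicates 2, 3 and 4 share theirs with the library labelled knockout PBS replicate 4. What the codes stand for was not tested. No source says whether the replicates are separate animals, so p-values measure the spread between libraries, which may be technical. Hippocampal neuron markers were present in every library, with a summed level of 690 to 1307 CPM over 10 genes.

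In wild-type PBS the set covered a wide span of levels. Divided by the length of the longest coding transcript, Il1rap (13.4 ± 1.71 CPM per kb, mean ± SD, n = 4) and Il18 (11.3 ± 1.10) were highest and overlapped each other. Tnfrsf1a (4.19 ± 0.264), Il1r1 (2.16 ± 0.122) and Casp1 (0.749 ± 0.329) followed, each above the next without overlap. Il1a (0.190 ± 0.0387), Nlrp3 (0.162 ± 0.0306) and Il1b (0.143 ± 0.0461) overlapped their neighbours, and Tnf and Il1rn were lowest at 0.0176 ± 0.0134 and 0.0148 ± 0.0155 CPM per kb. The receptor chains and Il18 were thus well measured, while the cytokines rested on few reads: 4 to 8 counts per library for Il1b, 9 to 16 for Il1a, 0 to 2 for Tnf and 0 to 3 for Il1rn.

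**Figure D1:**
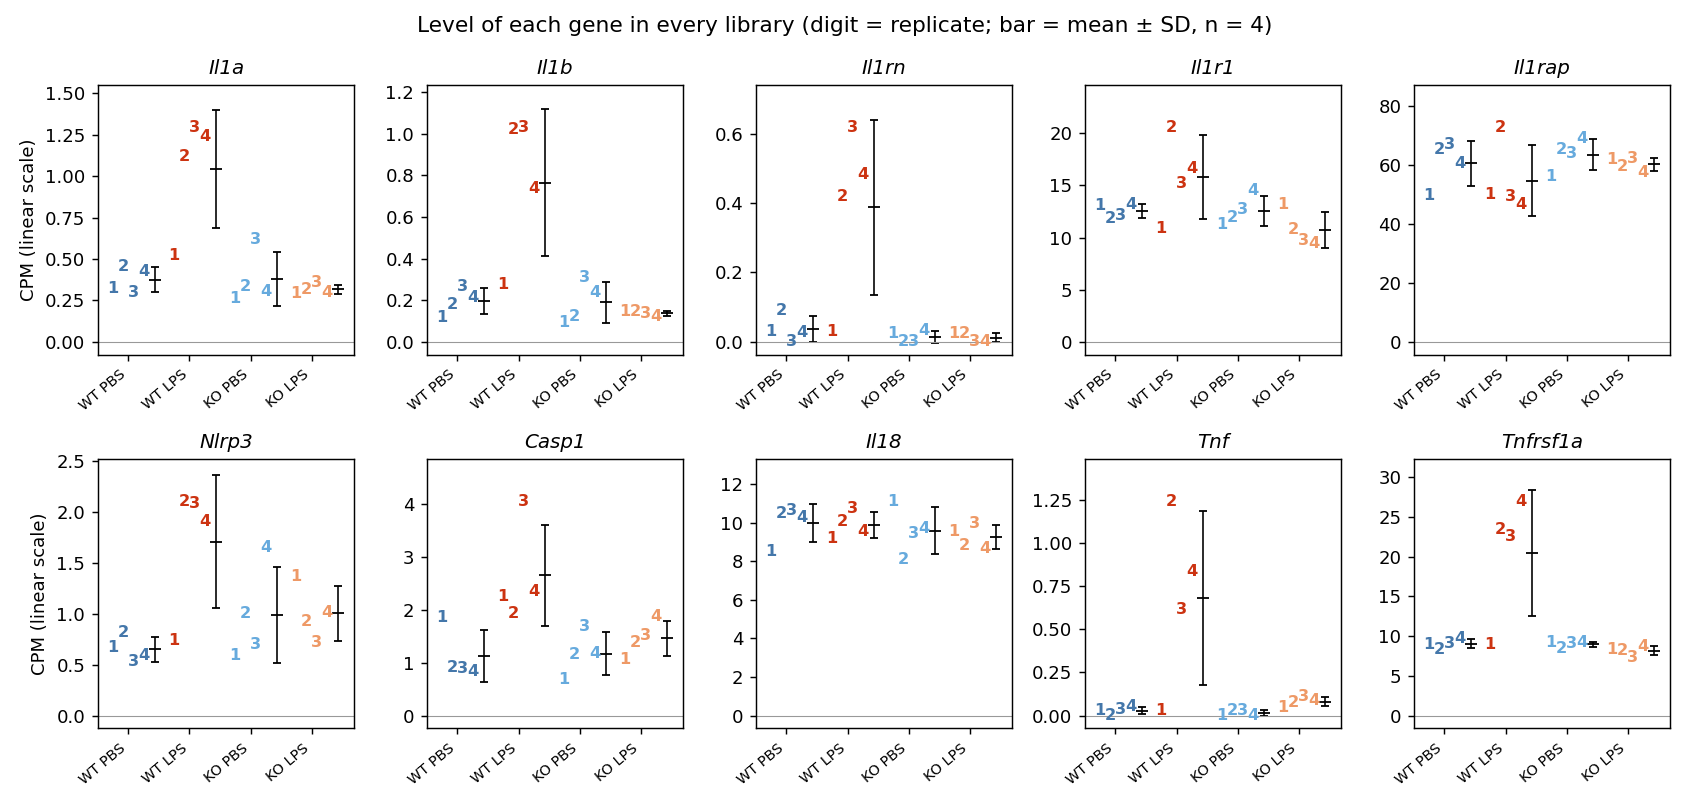
CPM on a linear scale (y axis) of each of the 10 genes by group (x axis), each digit being the replicate number of 1 library and the black bar the group mean ± SD (n = 4). In Il1a, Il1b, Il1rn, Il1r1, Nlrp3, Tnf and Tnfrsf1a, wild-type LPS replicates 2, 3 and 4 sit above all the other 13 libraries, while Il18 and Il1rap show no such gap.

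With LPS in wild type both IL-1 ligands, the inflammasome genes Nlrp3 and Casp1, and the TNF receptor rose, and no member fell. Of the 8 members with enough counts for the fit over all genes, 5 rose and 3 did not pass (edgeR quasi-likelihood test, Benjamini-Hochberg adjusted over 16269 genes). Of all genes tested, 4.72% rose and 3.85% fell. The median log2 change was 1.21 over the 8 members and 0.00 over all genes. In a fit of the 8 wild-type libraries alone no gene passed (Il1a adjusted p = 0.0875, Tnfrsf1a 0.101, edgeR), while 3012 genes had an unadjusted p below 0.05. In bulk tissue, more cells of a type and more RNA per cell cannot be told apart.

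Il1b, the ligand cut by caspase-1, was at 0.116, 0.181, 0.266 and 0.213 CPM in wild-type PBS replicates 1 to 4, and at 0.275, 1.02, 1.03 and 0.735 CPM in wild-type LPS. Replicate 1 of the LPS group lay just above the highest PBS library, and the groups did not overlap. Il1b rose 3.94-fold (log2 fold change 1.98 ± 0.42 SE, adjusted p = 0.0119, edgeR). It had 9, 51, 35 and 29 counts in wild-type LPS and at most 11 in any other library. Its place in the fit thus rested mainly on the LPS libraries where it was high. In the fit of the wild-type libraries alone it fell below the filter and was not tested. Il1a, the ligand active without cleavage by caspase-1, was at 0.319, 0.452, 0.299 and 0.426 CPM with PBS and 0.519, 1.12, 1.29 and 1.24 CPM with LPS. Its groups did not overlap either, again with replicate 1 closest to PBS. Il1a rose 2.77-fold (1.47 ± 0.32, adjusted p = 0.0120). Of the 8 members, 3 had groups that stood apart and higher, Il1a, Il1b and Casp1, against 4.22% of all genes.

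Casp1, the protease of the inflammasome, was at 1.86, 0.905, 0.896 and 0.825 CPM with PBS and 2.26, 1.94, 4.05 and 2.36 CPM with LPS. Here LPS replicate 1 was not the lowest of its group, and PBS replicate 1 lay far above the other PBS libraries. Casp1 rose by 1.24 ± 0.33 on the log2 scale (adjusted p = 0.0305, edgeR). Nlrp3, the sensor, was at 0.667, 0.814, 0.531 and 0.586 CPM with PBS and 0.733, 2.10, 2.09 and 1.9 CPM with LPS, so that LPS replicate 1 fell within the PBS range. It rose by 1.39 ± 0.36 (adjusted p = 0.0283). The calls of both genes depended on single libraries. The call of Casp1 was lost when wild-type LPS replicate 3 was left out (adjusted p = 0.109) or 4 (0.0572), or PBS replicate 2 (0.0932), 3 (0.0945) or 4 (0.0633), and that of Nlrp3 when LPS replicate 2 (0.0798), 3 (0.0840) or 4 (0.0706), or any 1 PBS replicate was (0.0503 to 0.0879). With the replicate number as a block, Casp1 had an adjusted p of 0.0583. With wild-type PBS replicates 2 and 3 summed as 1 library, Casp1 (0.0886) and Nlrp3 (0.0639) did not pass either. Il18, the other substrate of caspase-1, was at 8.53, 10.5, 10.6 and 10.3 CPM with PBS and 9.16, 10.1, 10.7 and 9.53 CPM with LPS, in overlapping groups. Its log2 difference was -0.02 ± 0.10 (adjusted p = 0.95).

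Tnfrsf1a, the receptor through which soluble TNF signals, had LPS replicate 1 at the PBS level and the other LPS libraries far above. It was at 8.99, 8.35, 9.03 and 9.75 CPM with PBS and 9.01, 23.4, 22.5 and 27.0 CPM with LPS. Its log2 rise was 1.18 ± 0.22 (adjusted p = 0.00649, edgeR), the smallest adjusted p among the 8 members, and 1.43 ± 0.08 without replicate 1 (4.52e-08). Il1r1, the signalling receptor, was at 13.1, 11.8, 12.1 and 13.2 CPM with PBS and 10.9, 20.5, 15.2 and 16.7 CPM with LPS. Replicate 1 was below every PBS library and the other 3 above, and with a difference of 0.34 ± 0.16 the gene missed the threshold (adjusted p = 0.204). Without replicate 1 it passed, at 0.48 ± 0.13 (0.0177). Il1rap, the accessory chain, was at 49.7, 65.2, 66.8 and 60.4 CPM with PBS and 49.9, 72.6, 49.3 and 46.6 CPM with LPS, and did not pass (-0.15 ± 0.12, adjusted p = 0.513).

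Tnf and the antagonist Il1rn fell below the count filter and were tested by exact two-sided permutation of their log2 CPM, 8 tests in all. The smallest p that 4 libraries against 4 can give is 0.0286, so that a single test could not pass once adjusted over the 8. Tnf had 1, 0, 1 and 2 counts in the wild-type PBS libraries and 1, 62, 21 and 33 in wild-type LPS, which is 0.0305, 1.24, 0.617 and 0.836 CPM. Replicate 1 again lay with PBS. The ratio of summed counts per library size was 25.3 (95% exact interval 9.63 to 94.5, counting error only), and the difference of 2.64 in log2 CPM had an exact permutation p of 0.0857 (0.171 adjusted over the 8 tests). Il1rn had 1, 3, 0 and 1 counts with PBS and 1, 21, 21 and 19 with LPS. Its ratio was 10.7 (4.36 to 34.2) and its difference 2.02 (exact permutation p = 0.0571, adjusted 0.152). In the edgeR fit with no filter on low counts, both passed: Tnf at 4.40 ± 0.86 (adjusted p = 0.00784) and Il1rn at 3.28 ± 0.83 (0.0274).

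**Figure D2:**
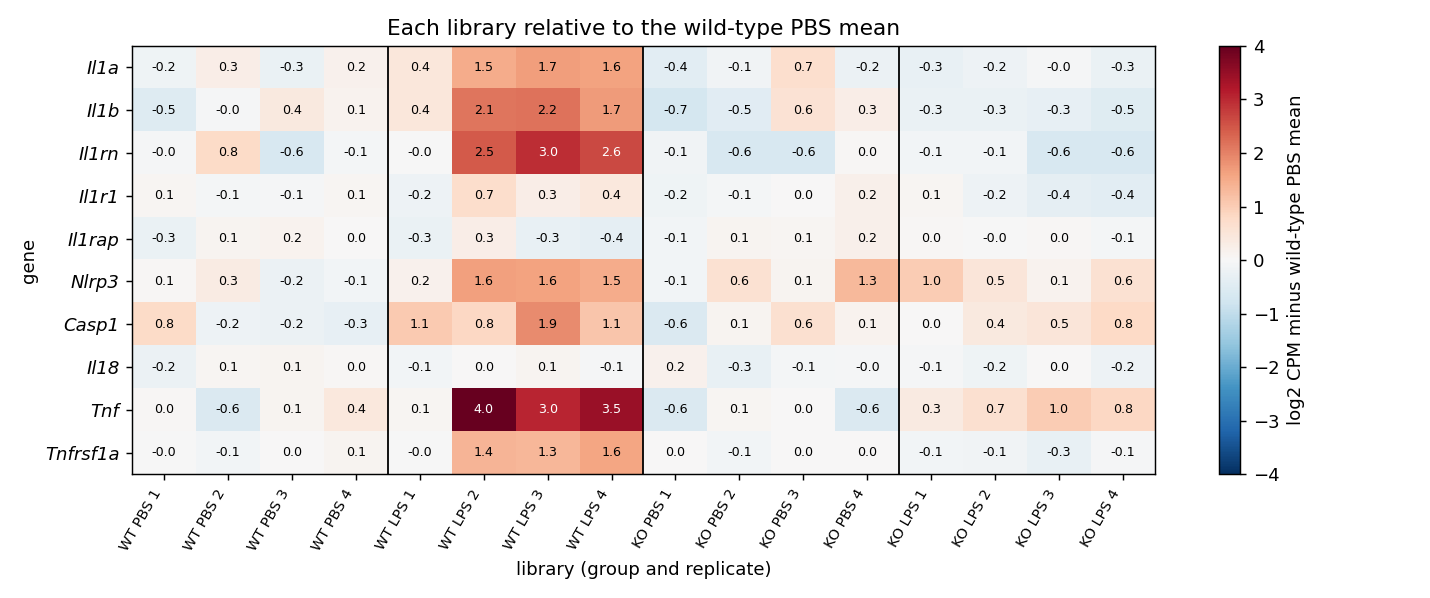
Log2 CPM of each gene (rows) in each library (columns) minus its wild-type PBS mean, printed in each cell and colored red for higher and blue for lower. Wild-type LPS replicate 1 resembles the PBS columns in most rows, and Tnf and Il1rn show large values from few counts.

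In the knockout no member passed between PBS and LPS, and neither did any of the 16269 genes in the edgeR test (0% called). At an unadjusted p below 0.05 there were 1120 genes, none of them a member. DESeq2 called 3 genes and limma-voom with sample weights 0, again no member. The 8 adjusted p-values ran from 0.731 to 0.980 and the median log2 difference of the members was -0.11, against -0.01 over all genes. All 8 members overlapped between the groups, while 6.55% of all genes did not.

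Il1b was at 0.0949, 0.121, 0.308 and 0.235 CPM in knockout PBS and 0.146, 0.146, 0.137 and 0.119 CPM in knockout LPS, with the LPS libraries inside the PBS range. The difference was -0.44 ± 0.49 (adjusted p = 0.824, edgeR). Il1a was at 0.261, 0.334, 0.616 and 0.302 CPM with PBS and 0.292, 0.317, 0.356 and 0.298 CPM with LPS, a difference of -0.26 ± 0.34 (0.853). Tnfrsf1a stayed between 7.35 and 9.16 CPM in all 8 knockout libraries, with 9.16, 8.43, 9.10 and 9.16 CPM under PBS and 8.32, 8.22, 7.35 and 8.68 CPM under LPS (-0.14 ± 0.22, adjusted p = 0.882). Nlrp3 varied more under PBS, at 0.593, 1.0, 0.700 and 1.64 CPM, than under LPS, at 1.36, 0.926, 0.713 and 1.01 CPM (0.04 ± 0.36, adjusted p = 0.980). Casp1 was at 0.688, 1.15, 1.68 and 1.17 CPM with PBS and 1.07, 1.39, 1.51 and 1.88 CPM with LPS (0.32 ± 0.33, adjusted p = 0.811). The receptor chains and Il18 lay between -0.22 and -0.05 on the log2 scale.

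Tnf was the member in which the knockout groups stood apart. Counts were 0, 1, 1 and 0 in knockout PBS and 2, 3, 4 and 3 in knockout LPS, where CPM reached 0.0487 to 0.110. The ratio of the summed counts, 12 against 2, was 5.55 (95% exact interval 1.24 to 51.0). The log2 CPM difference of 0.97 had an exact permutation p of 0.0286, the smallest possible, or 0.114 adjusted over the 8 tests, and edgeR with no filter gave an adjusted p of 0.742. Il1rn had 1 count or none in each of the 8 knockout libraries.

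Under PBS the genotypes did not differ in any member by the edgeR test. Of all genes 0.0369% passed and 3.28% stood apart between these groups, but all 8 members overlapped. Nlrp3 showed the largest difference, 0.58 ± 0.37 higher in the knockout (adjusted p = 0.919), and the other 7 lay between -0.06 and 0.07 on the log2 scale. Tnf held 2 counts in total in the knockout and 4 in wild type, and Il1rn 2 and 5. The library labelled knockout PBS replicate 1, whose Tspo matches wild type, was the lowest of its group for 6 genes, Il1a, Il1b, Il1r1, Il1rap, Casp1 and Nlrp3, and the highest for Il18, at 11.1 CPM.

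After LPS, Il1a, Il1b, Il1r1 and Tnfrsf1a were lower in the knockout than in wild type, and no member was higher. These 4 of 8 members compare with 7.28% of all genes called lower and 4.61% called higher (edgeR). The median log2 difference was -0.81 over the members and 0.00 over all genes. The wild-type LPS libraries are shared with the LPS effect in wild type, so that the size of one is not independent of the other. For each member the values in that comparison and this one were, on the log2 scale, 1.98 and -2.45 for Il1b, 1.47 and -1.72 for Il1a, 1.18 and -1.33 for Tnfrsf1a, 1.39 and -0.77 for Nlrp3, 1.24 and -0.86 for Casp1, 0.34 and -0.56 for Il1r1, -0.15 and 0.14 for Il1rap, and -0.02 and -0.10 for Il18.

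Il1b was 5.48-fold lower in the knockout under LPS (log2 -2.45 ± 0.44, adjusted p = 0.00460, edgeR). Its knockout values of 0.119 to 0.146 CPM lay below all 4 wild-type values, of which replicate 1, at 0.275 CPM, was nearest. Il1a was 3.29-fold lower (-1.72 ± 0.32, adjusted p = 0.00538) and Tnfrsf1a 2.52-fold lower (-1.33 ± 0.22, adjusted p = 0.00366). In Tnfrsf1a the highest knockout library, at 8.68 CPM, was close to wild-type replicate 1 at 9.01 CPM. Groups stood apart and lower in 4 of 8 members, Il1a, Il1b, Casp1 and Tnfrsf1a, against 6.98% of all genes. These 3 calls, Il1a, Il1b and Tnfrsf1a, held in each alternative that tested them. Il1b, however, was kept by the count filter mainly through the wild-type LPS libraries where it was high. Its place among the members called is thus not independent of that group.

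Il1r1 was at 13.2, 10.8, 9.68 and 9.42 CPM in knockout LPS, against 10.9 to 20.5 CPM in wild type, and the ranges overlapped. It was 1.47-fold lower (-0.56 ± 0.16, adjusted p = 0.0346, edgeR). The call was lost without knockout LPS replicate 2 (0.0725), 3 (0.0960) or 4 (0.0869), without wild-type LPS replicate 2 (0.107), 3 (0.0668) or 4 (0.0836), with the replicate block (0.0638) and in a fit of the 8 LPS libraries alone (0.117). Casp1 (-0.86 ± 0.32, adjusted p = 0.0936) and Nlrp3 (-0.77 ± 0.35, 0.165) did not pass. Without wild-type LPS replicate 1, Nlrp3 passed, at -1.01 ± 0.30 (0.0254). Il1rap was at 61.6, 59.4, 62.1 and 57.4 CPM in knockout LPS (0.14 ± 0.12, adjusted p = 0.499) and Il18 at 9.56, 8.80, 9.95 and 8.65 CPM (-0.10 ± 0.10, 0.576).

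Il1rn held 62 counts over the wild-type LPS libraries and 2 over those of the knockout, a ratio of 0.0331 (95% exact interval 0.00392 to 0.125). Its groups did not overlap, by a margin of 0.0305 against 0.0244 CPM, which is 1 count in each library (difference -2.40, exact permutation p = 0.0286, adjusted 0.114 over the 8 tests). Tnf held 117 and 12 counts, a ratio of 0.105 (0.0529 to 0.191), and its groups overlapped through wild-type replicate 1 (-1.93, exact permutation p = 0.143, adjusted 0.229). With no filter edgeR called both lower in the knockout, Tnf at -3.06 ± 0.74 (adjusted p = 0.0188) and Il1rn at -4.58 ± 0.94 (0.00878).

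**Figure D3:**
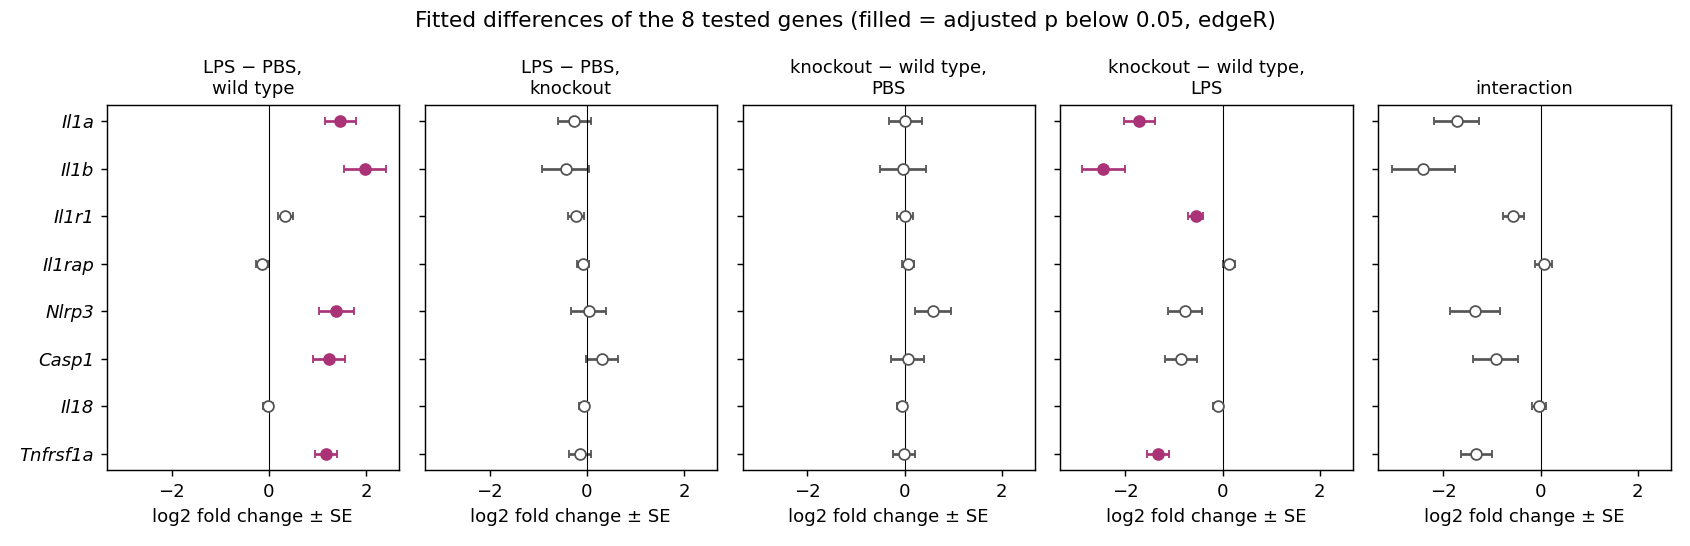
Fitted log2 fold change ± SE (x axis) of the 8 tested genes (y axis) in the 4 comparisons and the interaction, filled where the adjusted p was below 0.05 (edgeR). The filled points are 5 of 8 for LPS in wild type and 4 of 8 for genotype under LPS, with none in the other 3 panels.

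Whether the LPS response itself differed between genotypes is asked by the interaction, and no member passed it with all libraries (edgeR). Of all genes, 1.15% did. At an unadjusted p below 0.05 there were 5 of 8 members, and 3520 of the 16269 genes. DESeq2 called 3 members and 1278 genes, and limma-voom 6 members and 4029 genes. Tnfrsf1a came nearest, at -1.32 ± 0.32 (adjusted p = 0.0532), followed by Il1a at -1.73 ± 0.46 (0.0661) and Il1b at -2.41 ± 0.65 (0.0662). Nlrp3 was at -1.35 ± 0.51 (0.143), Il1r1 at -0.56 ± 0.22 (0.167) and Casp1 at -0.92 ± 0.46 (0.262), while Il1rap and Il18 were at 0.07 and -0.04. The outcome depended on single libraries. Without wild-type PBS replicate 4, Tnfrsf1a passed (0.0378), as did 947 of 16466 genes. Without wild-type LPS replicate 1, 5 of 10 tested members passed, and 2655 of 16504 genes. The members were Il1a (0.00479), Il1b (0.00429), Il1r1 (0.0166), Nlrp3 (0.0222) and Tnfrsf1a (1.29e-06), and the fitted difference of Il1b became -2.68 ± 0.53. The 3 that DESeq2 called were Tnfrsf1a (adjusted p = 0.00344), Il1a (0.0337) and Il1b (0.0342).

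Other genes of the pathways were read from 3 lists. Of 20 tested genes of the IL-1 family and its signalling, 1 rose and 2 fell with LPS in wild type (median log2 change 0.00), against 4.72% and 3.85% of all genes. The gene that rose was Il1r2, the decoy receptor, which binds IL-1 without signalling. It was at 0.160 to 0.332 CPM in wild-type PBS and at 0.122, 2.58, 3.82 and 3.88 CPM in wild-type LPS (3.34 ± 0.67, adjusted p = 0.00881, edgeR). In knockout LPS it was at 0.0243 to 0.110 CPM, a log2 difference of -5.10 ± 0.77 from wild-type LPS (0.00308). Il33, an alarmin of the family held in the nucleus, went the other way. It was at 48.4, 62.4, 65.6 and 59.5 CPM with PBS and 37.9, 34.6, 25 and 21.6 CPM with LPS in wild type, where replicate 1 also lay below every PBS library (-0.98 ± 0.15, adjusted p = 0.00281). Knockout LPS stood at 47.4 to 56.4 CPM, 0.83 ± 0.15 above wild-type LPS (0.00445), and Il33 was the 1 gene of this list that passed the interaction (1.15 ± 0.21, 0.0432). No gene of any kind passed the interaction with the replicate block, with wild-type PBS replicates 2 and 3 summed, or in 8 of the 16 fits that left out a library. Ube2n, an enzyme of ubiquitin chain building downstream of the receptor, fell by 0.14 ± 0.04 (0.0388). Between genotypes under LPS, 3 of the 20 were higher in the knockout (Il33, Tab3 and Ube2n) and 2 lower, against 4.61% and 7.28% of all genes.

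Of 24 tested genes of TNF receptors and signalling, 5 rose and none fell with LPS in wild type (median 0.23), and 6 were lower and none higher in the knockout under LPS (median -0.19). In these comparisons 4.72% of all genes rose and 7.28% were lower. Tnfrsf1b, the other TNF receptor, was at 3.23 to 4.29 CPM in wild-type PBS and 4.49, 9.06, 6.96 and 7.68 CPM in wild-type LPS (0.95 ± 0.20, adjusted p = 0.0117, edgeR). Birc3, an inhibitor of cell death recruited to the receptor, was at 1.94 to 2.44 CPM and then 2.05, 6.66, 5.85 and 5.63 CPM (1.16 ± 0.28, 0.0202). In knockout LPS they stood at 3.49 to 4.44 and 1.84 to 2.41 CPM, with log2 differences from wild-type LPS of -0.87 ± 0.20 (0.0152) and -1.28 ± 0.28 (0.0111). Rnf31, part of the linear ubiquitin ligase, rose by 0.32 ± 0.07 (0.0106) and Tnip1, a brake on NF-kappaB, by 0.23 ± 0.05 (0.0204). Mlkl, the executor of necroptosis, was lower in the knockout under LPS (-2.24 ± 0.55, 0.0185). Rnf31 alone of this list passed the interaction (-0.43 ± 0.10, adjusted p = 0.05 after rounding up, edgeR). In the fits in which no gene passed the interaction, this call and that of Il33 were lost as any call would be. The other fits were not examined for Rnf31 or Il33.

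Of 23 tested inflammasome and pyroptosis genes, 5 rose and none fell with LPS in wild type (median 0.52), and 5 were lower and none higher in the knockout under LPS (median -0.49). The shares of all genes were again 4.72% and 7.28%. Casp4, which in mouse encodes caspase-11, the sensor of LPS inside the cell, was at 0.145 to 0.271 CPM in wild-type PBS and 0.580, 1.74, 2.12 and 1.75 CPM in wild-type LPS (2.84 ± 0.45, adjusted p = 0.00343, edgeR). Gsdmd, the pore former that caspase-1 and caspase-11 open, was at 1.71 to 2.03 CPM and then 1.83, 4.74, 4.35 and 5.12 CPM (1.09 ± 0.25, 0.0155). In knockout LPS Casp4 stood at 0.0823 to 0.414 CPM and Gsdmd at 1.48 to 2.19 CPM, with log2 differences from wild-type LPS of -2.79 ± 0.44 (0.00324) and -1.18 ± 0.25 (0.00921). Trim30a and Naip2 rose by 1.74 ± 0.36 (0.00975) and 1.9 ± 0.41 (0.0119), and were lower in knockout LPS than in wild-type LPS (-1.81 ± 0.36, 0.00685, and -1.58 ± 0.40, 0.0210). Naip2 and Trim30a have close paralogs, and reads shared with them could be divided either way. In the knockout with LPS, and between genotypes under PBS, no gene of the 3 lists passed.

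**Figure D4:**
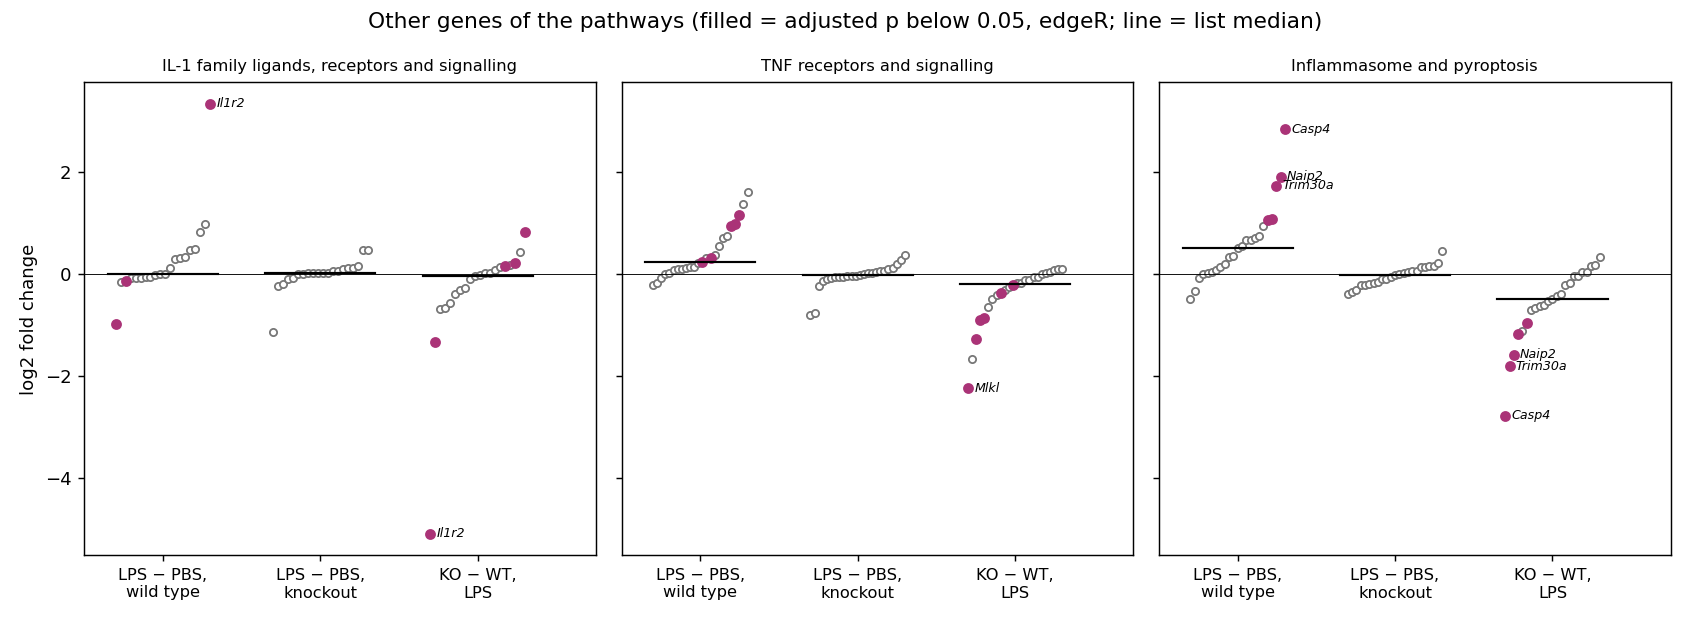
Log2 fold change (y axis) of each tested gene of the 3 lists in 3 comparisons (x axis), filled where the adjusted p was below 0.05 (edgeR), with a line at the list median. The filled points are 3, 5 and 5 for LPS in wild type, none for LPS in the knockout, and 5, 6 and 5 for genotype under LPS.

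Some markers of other cells differed between the same groups. For all the marker lists, the background for LPS in wild type was 4.72% of all genes rising and 3.85% falling. For the knockout under LPS it was 7.28% lower and 4.61% higher. The summed level of 14 genes of neutrophils, monocytes and lymphocytes was 1.70 to 2.50 CPM in wild-type PBS, 3.08 to 18.3 CPM in wild-type LPS, 1.26 to 2.14 CPM in knockout PBS and 1.56 to 3.28 CPM in knockout LPS. Wild-type LPS replicate 1 held the 3.08 CPM. Of the 6 genes tested, 3 rose with LPS in wild type and 3 were lower in the knockout under LPS (edgeR). S100a8, a neutrophil gene, was at 0.183, 3.00, 2.94 and 4.71 CPM in wild-type LPS and up to 0.107 CPM in wild-type PBS. S100a9 was at 0.153, 4.36, 4.38 and 6.59 CPM in wild-type LPS and up to 0.290 CPM in PBS. S100a8 and S100a9 thus made up a large part of the sum in replicates 2, 3 and 4. Ccr2, a monocyte gene of the list, was at 0.133 to 0.241 CPM in wild-type PBS and 0.3665, 0.12, 0.0294 and 0.304 CPM in wild-type LPS. Camp, a defining neutrophil granule gene, was at 0 in all 4 knockout PBS libraries and at most 0.152 CPM in any library. The 6 genes of perivascular macrophages summed to 4.61 to 7.51 CPM in wild-type PBS and to 9.56, 11.8, 10.4 and 12.8 CPM in wild-type LPS, so that replicate 1 was also above every PBS library, with 6.44 to 7.65 and 5.63 to 8.91 CPM in the knockout. Again 3 of 6 rose with LPS in wild type and 3 were lower in the knockout under LPS.

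The 10 microglial genes summed to 285 to 348 CPM in wild-type PBS and 289 to 458 CPM in wild-type LPS, and to 313 to 347 and 306 to 374 CPM in the knockout. Of these 1 rose and 1 fell in wild type, and under LPS the knockout was higher in 3 and lower in 2. P2ry12, a homeostatic microglial receptor, was at 22.6 to 25.3 CPM in wild-type PBS and 20.1, 6.06, 6.14 and 4.97 CPM in wild-type LPS, which sets replicate 1 apart as Tnfrsf1a did. In the same list Tmem119 was at 15.2 to 17.8 CPM and then 18.9 to 21.8 CPM, and Cx3cr1 at 38.4 to 49.2 CPM and then 41.9 to 73.1 CPM. The 8 endothelial genes summed to 218 to 272 CPM, 206 to 305 CPM, 183 to 210 CPM and 173 to 215 CPM in wild-type PBS, wild-type LPS, knockout PBS and knockout LPS. Of them 1 rose and 2 fell with LPS in wild type, and 4 were lower in the knockout under LPS. Of the 7 oligodendrocyte genes 4 fell with LPS in wild type and 4 were higher in the knockout under LPS, in the same direction as Il33. They summed to 6717 to 8868 CPM in wild-type PBS and to 4233, 8063, 4673 and 3372 CPM in wild-type LPS. Here LPS replicate 1 was below every PBS library. Of the 7 astrocyte genes 2 rose in wild type, and under LPS 1 was higher and 2 lower in the knockout. Choroid plexus genes differed between libraries of a group, and none passed. They summed to 13.95 CPM in wild-type PBS replicate 1 and 15.7 CPM in wild-type LPS replicate 1, against 762 to 3450 CPM and 580 to 1267 CPM in the other libraries of these groups. The part of these markers in the results on the IL-1 and TNF genes was not tested.

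**Figure D5:**
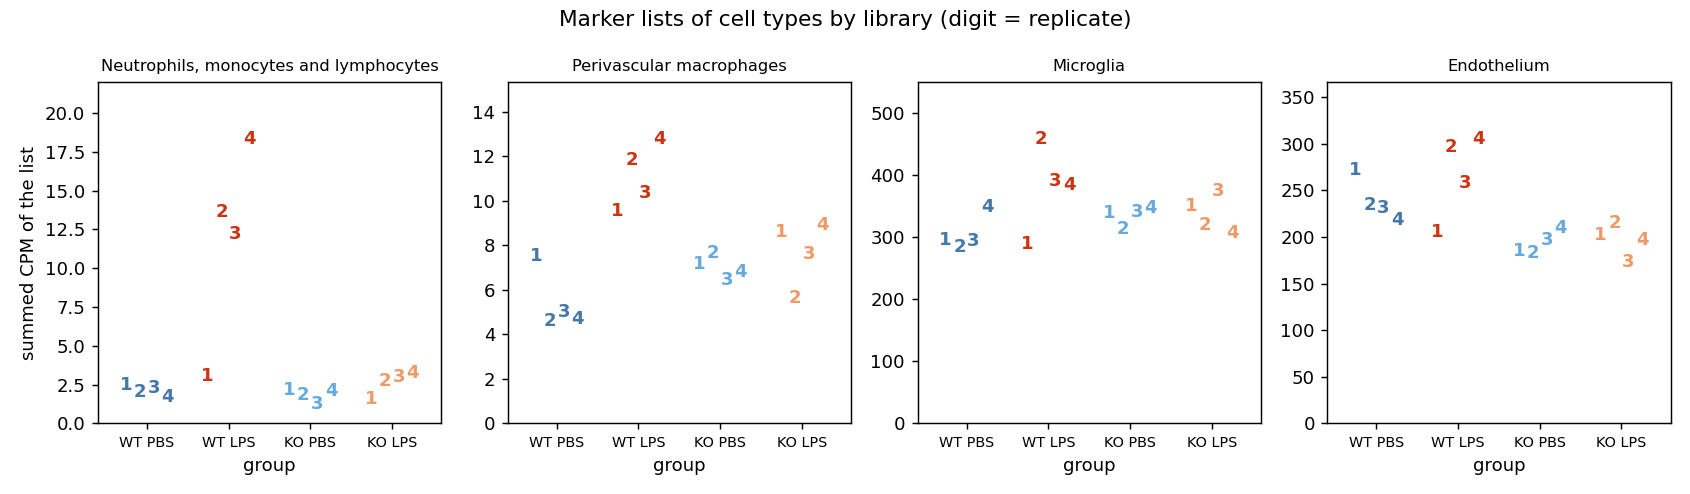
Summed CPM (y axis, from 0) of 4 marker lists by group (x axis), each digit being the replicate number of 1 library. In the leukocyte list wild-type LPS replicates 2, 3 and 4 stand at 12.2 to 18.3 CPM, above every other library, while microglial and endothelial lists overlap more.

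The genes whose levels most resembled those of Il1b over the 16 libraries, by Pearson correlation of log2 CPM among 12800 genes, were Iigp1 (0.94), Abcb1b (0.94), Apobec3 (0.94), Oasl2 (0.93) and Pik3ap1 (0.93). Each was higher in wild-type LPS replicates 2, 3 and 4 than in the other 13 libraries, where the correlation was 0.39 to 0.64. By rank correlation none of these 5 was among the 5 most alike. For Il1r1 they were Apcdd1 (0.97), Pald1 (0.96), Mri1 (0.96), Elk3 (0.94) and Polr2a (0.93). Their correlation over the 13 libraries was 0.78 to 0.93, and 3 of the 5 were kept by rank correlation. The points share library, depth and tissue, and the values are a description.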

How the data were processed

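Total RNA libraries of mouse hippocampus were grouped by the deposited labels for genotype and injection. The deposited table holds the authors' estimated counts per gene, all whole numbers; per the submitters' processing notes the tools were Salmon 1.9.0, MultiQC 1.13, DESeq2 and DESeq, without their roles. Every listed gene summed to at least 10 counts. The aligner settings, genome build and annotation are not given in the sources used here. Symbols and lengths came from GENCODE M21 (GRCm38); 120 identifiers with 0.106% of counts had no symbol. Salmon divides reads among similar transcripts, which affects paralogs, and counting strand is not stated.

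The filterByExpr function of edgeR 4.0.16, in R 4.3.3, selected the genes tested, leaving 16269 genes and 99.97% of counts and removing 3180, including Tnf and Il1rn. Counts were scaled by TMM and fitted in 1 quasi-likelihood model over all 16 libraries (biological coefficient of variation 0.177). F tests were adjusted by Benjamini-Hochberg at 0.05. SE is the log2 fold change divided by the root of F; log2 CPM used a prior count of 2. Tnf and Il1rn had exact permutation tests, and their count ratios exact 95% intervals. Alternatives used RLE scaling, DESeq2 1.42.0, limma 3.58.1, other filters, a replicate block, the 2 groups of a comparison fitted alone, and each library left out in turn. The fit was tested on simulated data. Reads carry no molecular identifiers, so intervals cover counting error only.

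Every member is described. Of the pathway lists up to 4 genes per list and comparison that passed, with the smallest p, could be named. P2ry12, Tmem119, Cx3cr1, S100a8, S100a9, Ccr2 and Camp were chosen after their values were seen. Members, lists and tests were chosen with earlier results of these data known. Promoters are RefSeq sequences on GRCm38.p6.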

Additional observations from a re-analysis of the deposited data

Results flagged for a closer look

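In each gene and group of 4 libraries, the gap between an extreme library and its nearest neighbour was divided by the group's range and compared with Dixon's 95% critical value. Of 40 gene and group combinations 8 exceeded it. The chance rate of about 1 in 20 holds for independent, normally distributed values. Here the genes share the same libraries and some rest on few counts, so the number is a description. Wild-type LPS replicate 1 was low for 4 genes: Il1a at 0.519 CPM, Il1rn at 0.0305 CPM, Nlrp3 at 0.733 CPM and Tnfrsf1a at 9.01 CPM. Wild-type LPS replicate 2 was high for Il1rap at 72.6 CPM. In wild-type PBS, replicate 1 was high for Casp1 at 1.86 CPM and low for Il18 at 8.53 CPM. The library labelled knockout PBS replicate 2 was low for Tnfrsf1a at 8.43 CPM, in a group spanning 8.43 to 9.16 CPM.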

How the results depend on the processing

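The members called for LPS in wild type, under LPS between genotypes and in the interaction numbered 5, 4 and 0. With genes required to reach 1 CPM in 4 or more libraries, which removed Il1a and Il1b, the first 2 became 3 and 2. DESeq2 gave 3 for the interaction and limma-voom with sample weights 6. A fit of only the libraries compared gave 0 for LPS in wild type, where no gene was called and 3012 had an unadjusted p below 0.05. Leaving out each library gave 3 to 8, 3 to 7 and 0 to 5, the highest without wild-type LPS replicate 1. In most of these fits Tnf and Il1rn passed the filter too, so that 10 members were tested. They entered only through wild-type LPS replicates 2, 3 and 4, where they were high. Any call of Tnf or Il1rn in these counts is thus no separate support. Only without wild-type LPS replicate 2, 3 or 4 did 8 members remain. Without the filter and wild-type LPS replicate 1, a setting chosen after seeing the data, the members called were 8, 7 and 5. No member passed in the knockout or under PBS in any setting run.

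Il1a and Il1b between genotypes under LPS passed in all 24 settings that tested them, and Tnfrsf1a in all 25. Where counts were filtered, Il1b was tested mainly because of the wild-type LPS libraries where it was high. Casp1 and Nlrp3 in wild type passed in 17 and 16 of 25. Over all genes, the calls for LPS in wild type were 1394, against 2096 with DESeq2, 4684 with limma-voom and 538 to 3380 leaving out a library. Between genotypes under LPS they were 1935, against 4073 with limma-voom, 438 with only the libraries compared and 858 to 4005. For the interaction they were 187, against 0 with the replicate block, 39 with no filter, 42 with the CPM filter, 63 with RLE scaling, 1278 with DESeq2, 4029 with limma-voom and 0 to 2655. Wild-type PBS replicates 2 and 3 were the closest of 24 within-group pairs, with a mean chi-square per gene of 3.78 against 12.3 for the next. Summing them gave 670 genes for LPS in wild type and 0 for the interaction. Under PBS they were 6, against 17 with DESeq2, 308 with limma-voom, 3 with the replicate block, 1 with the pair summed and 1 to 9 leaving out a library.

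The replicate block gave 4 members for LPS in wild type and 3 between genotypes under LPS. Same-numbered libraries deviated with correlations of -0.232 to 0.364, of which 2 of 24 exceeded 0.1. The highest was that of wild-type PBS replicate 1 with wild-type LPS replicate 1. No general pairing by number was seen, but low correlations cannot exclude that some numbers pair libraries. With the block, Il1a between genotypes under PBS was -0.0276.

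Values that changed sign were small and uncalled. With wild-type PBS replicates 2 and 3 summed, also chosen after seeing the data, Il18 for LPS in wild type was 0.0191, and between genotypes under PBS Il1b was 0.0058, Il1r1 -0.0168 and Casp1 -0.0153. Without the filter and wild-type LPS replicate 1, Il18 was 0.0189. With limma-voom, under PBS Il1rap was -0.0137 and Tnfrsf1a 0.0467. Leaving out each library, under PBS Il1a ran from -0.328 to 0.162, Il1b from -0.390 to 0.200, Il1r1 from -0.0726 to 0.0544, Il1rap from -0.0143 to 0.125, Casp1 from -0.165 to 0.419, Il18 from -0.136 to 0.0134 and Tnfrsf1a from -0.0442 to 0.0276. In the knockout with LPS Il1a ran from -0.408 to 0.0859, Nlrp3 from -0.143 to 0.399 and Il18 from -0.120 to 0.0261. Il18 ran from -0.0767 to 0.0235 in wild type and from -0.112 to 0.0422 in the interaction. The cause was not tested. Tnf and Il1rn rested on few counts, which limits their precision.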
